A study of Mus musculus with 6 samples.

Results

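The mouse microRNAs (miRNAs) mmu-miR-451, mmu-miR-144 and mmu-miR-486, best known from red blood cell precursors and written below without the species prefix, were followed in pro-B cells. The 3 were chosen by name on the array, with all 6 of their probes, out of 567 mouse miRNAs with 1672 probes. Sorted Fr. B/C, in which pro-B cells begin to rearrange antibody genes, were taken from BALB/c mice, with no further allele or treatment named in the labels. Fetal liver cells came from 3 sorts at day 16 of gestation, each from the pooled embryos of 1 pregnant mouse (8 on average). Adult bone marrow cells came from 3 sorts, each from the pooled femurs and tibias of 3 female mice. Each sort was labelled with Cy3 and read on 1 array, so there were 3 arrays per group, and their small number limits the precision of every value. Tissue and age differed together between the groups and cannot be told apart. As a sort contains many cells, fewer cells of a type and less RNA per cell cannot be told apart either.

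An miRNA is a short RNA that guides an Argonaute protein to messenger RNAs that pair with its seed, the stretch of bases near its 5′ end. MiR-144 and miR-451 are cut from 1 primary transcript, which the transcription factor GATA1 switches on in red cell precursors. They mature by different routes: miR-144 is cut by Dicer, whereas the short miR-451 hairpin is cut by Argonaute 2 itself. MiR-486 lies in the Ank1 gene, which encodes the red cell membrane skeleton protein ankyrin-1, and is abundant in red cells and in muscle. Fetal liver at this stage is mainly a site of red cell production.

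The sequences below show the 2 miRNAs of the shared locus, with the seed (bases 2 to 8) in capitals, from RefSeq (GRCm38.p6), which gave a mature sequence for 2 of the 3 miRNAs. The array names miR-451 and miR-144 were matched to miR-451a and miR-144-3p through the gene synonyms and the spacing, since 119 bases lie between the array's probe spans on mm9 and also between miR-144-3p and miR-451a on GRCm38.p6.
miR-451a: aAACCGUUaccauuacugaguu
miR-144-3p: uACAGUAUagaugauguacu
Their seeds differ, and each was the only mature mouse miRNA in the RefSeq table with its seed. The hairpins are shown next because the place of the mature miRNA, in capitals, differs between them.
Mir451a hairpin: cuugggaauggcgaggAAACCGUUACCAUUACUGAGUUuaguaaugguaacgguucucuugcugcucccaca
Mir144 hairpin: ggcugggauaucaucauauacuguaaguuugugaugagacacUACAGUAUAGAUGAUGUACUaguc
MiR-451a occupies bases 17 to 38 of its 72-base hairpin and so starts on the 5′ side, and miR-144-3p occupies bases 43 to 62 of its 66-base hairpin, on the 3′ side. On GRCm38.p6 both hairpins are on the plus strand of chromosome 11, Mir144 at chr11:78073005-78073070 and Mir451a at chr11:78073170-78073241, with 99 bases between them. Mir486 is on chromosome 8 (23142555 to 23142682), within the span of Ank1 (22974836 to 23150501).

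Each miRNA had 2 probes with 10 spots per probe and array, and none of these spots was saturated. Per the files, which use build mm9, the miR-451 probes span 22 and 21 bases of chromosome 11 (77886688 to 77886709, and 77886689 to 77886709). The miR-144 probes span 20 and 19 bases (77886549 to 77886568, and 77886550 to 77886568). The miR-486 probes span only 14 and 13 bases of chromosome 8 (24253067 to 24253080, and 24253068 to 24253080). Levels of different probes are not on a common scale, so each probe was compared only with itself across arrays.

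Signals are given as the scanner software's background-subtracted intensity, or scaled, after each array was brought to a common 75th percentile of the 82 probes that passed the background mark everywhere. The software flags single spots as well above background, and a probe passed this mark if over 50 percent of its spots had the flag. Fetal liver replicate 2 stood apart: 7.02 percent of its mouse miRNA spots were well above background, against 18.4 to 23.7 percent on the other 5 arrays, and its negative controls had an SD of 12.1 against 2.65 to 4.13. Tests per miRNA, list counts, marker sums and profile distances are therefore also given without it. For single probes and for pairs of miRNAs only the size of the difference is given without it. For the test, scaled signals under a floor of 16.5 (4.04 on the log2 scale) were set to that floor.

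MiR-451, which restrains 14-3-3ζ in red cell precursors and is needed for their survival under oxidative stress, was measured in every sort and was higher in fetal liver. On its brighter probe the scaled signal was 448, 569 and 738 on fetal liver arrays 1 to 3, against 152, 87.6 and 94.8 on bone marrow arrays 1 to 3. All 3 fetal liver arrays lay above all 3 bone marrow arrays, as for 22.4 percent of the 134 tested miRNAs. The lowest fetal value was 2.95 times the highest marrow value. Within each tissue the highest array was 1.65 times the lowest in fetal liver and 1.73 times in bone marrow. The groups were also separate before scaling, at 289, 314 and 774 in fetal liver and 169, 143 and 95.8 in bone marrow.

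On the log2 scale miR-451 averaged 9.16 ± 0.36 in fetal liver and 6.75 ± 0.43 in bone marrow (SD, n = 3 arrays each), a rise of 2.41 ± 0.31 (SE), or 5.30-fold (limma across all tested miRNAs, Benjamini-Hochberg adjusted p = 0.00245). Of the 134 miRNAs tested, 14 were called higher in fetal liver, which is 10.4 percent, and 15 lower. Only miR-714 had a larger positive difference than miR-451 (2.57). The median difference of all tested miRNAs was 0.25, and miR-451 stood 2.16 above it. With fetal liver replicate 2 left out, miR-451 differed by 2.36 (adjusted p = 0.0113 from limma with Benjamini-Hochberg adjustment), and 19 of 143 tested miRNAs (13.3 percent) were called higher. The call ended when all 567 miRNAs were tested with no rule on detection (2.41, limma, Benjamini-Hochberg adjusted p = 0.0596).

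The other miR-451 probe, which spans 1 base less, gave the same picture at a lower signal. It had scaled signals of 233, 304 and 392 in fetal liver and 83.0, 48.5 and 51.6 in bone marrow. The order of the arrays within each tissue was that of the brighter probe. In a fit over 253 probes, of which 22 (8.70 percent) were called higher in fetal liver, this probe differed by 2.35 ± 0.31 SE (5.11-fold, limma, Benjamini-Hochberg adjusted p = 0.00379) and the brighter one by 2.41 ± 0.31 (adjusted p = 0.00373). Without fetal liver replicate 2, at the same scaling, the shorter probe also differed by 2.35. All spots of both probes that were not marked as outliers were well above background on all 6 arrays, and their coefficient of variation within an array lay between 1.59 and 5.75 percent.

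**Figure D1:**
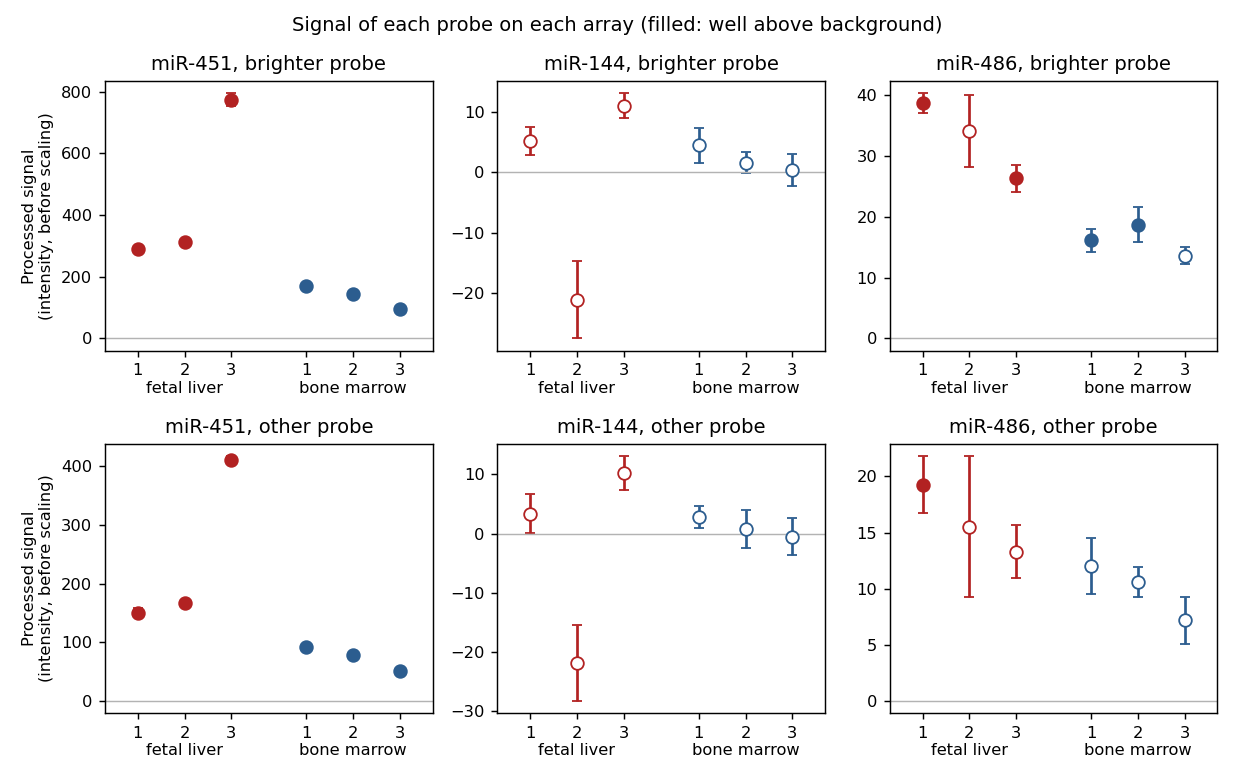
Processed signal before scaling (vertical axis, intensity) of the brighter and the other probe of miR-451, miR-144 and miR-486 on each array, fetal liver replicates in red and bone marrow replicates in blue; points are means over spots, bars are the SD over spots within the array, and filled points are well above background. The brighter miR-451 probe ran from 289 to 774 in fetal liver and from 95.8 to 169 in bone marrow, whereas miR-144 stayed at or below 11.1 on every array.

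MiR-144, known in human red cells to lower the antioxidant regulator Nrf2, was not measured well above background on any array by either probe. On its brighter probe the processed signal was 5.26, -21.1 and 11.1 on fetal liver arrays 1 to 3, against 4.45, 1.58 and 0.34 on bone marrow arrays 1 to 3. Its other probe had 3.37, -21.8 and 10.2 in fetal liver and 2.76, 0.78 and -0.51 in bone marrow. The groups overlapped on both probes. On fetal liver replicate 2 both probes were below 0, under that array's negative control mean of 13.4. Without that array, both remaining fetal liver values were above all 3 bone marrow values on each probe, but every one lay below the lowest signal well above background on its own array (12.9 on fetal liver replicate 1 and 14.3 on replicate 3). As all 6 values were under the floor, miR-144 had 4.04 on the log2 scale everywhere, it was not tested, and no fold is given.

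The highest miR-144 signal was on fetal liver replicate 3, which also had the highest miR-451 signal. There 1 of 10 spots of the brighter miR-144 probe was well above background, the only such spot of miR-144 on any array among spots not marked as outliers, and the scanner software's own call per miRNA marked miR-144 as detected on this array and on none of the other 5. By single spots, miR-451 had 100 percent well above background on all 6 arrays and miR-144 between 0 and 10 percent. Their probes differ in sequence, and no detection limit per probe was used here, so these shares do not compare the amounts of the 2 miRNAs. The opposite arm of the hairpin, miR-144*, had no mouse probe under that name and was therefore not analysed here.

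**Figure D2:**
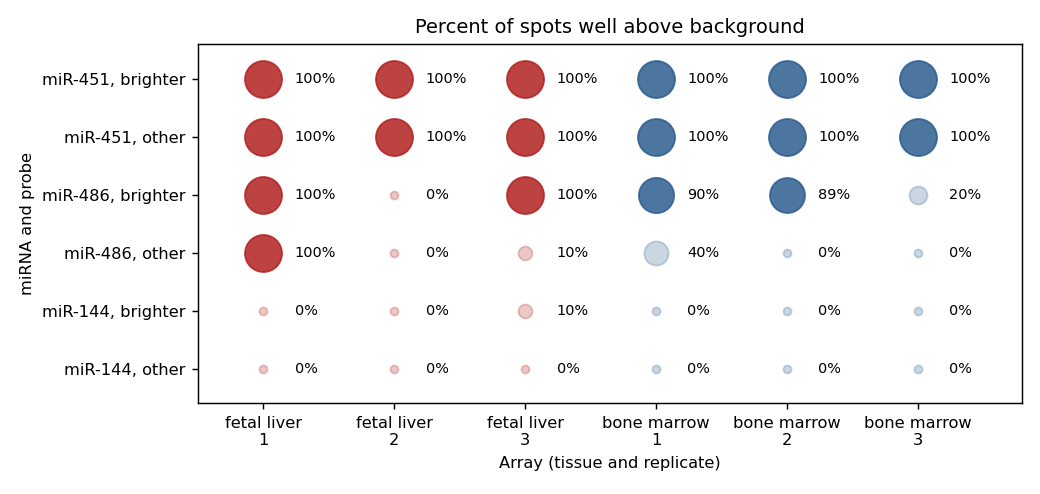
Percent of spots well above background (number beside each circle, area growing with it) for the 2 probes of each miRNA (rows) on each array (columns), spots marked as outliers left out, fetal liver in red and bone marrow in blue; pale circles are at or below 50 percent. MiR-451 had 100 percent on every array, miR-486 varied between arrays, and miR-144 had at most 10 percent.

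MiR-486, which lowers the transcription factor Foxo1, was close to background. On its brighter probe the scaled signal was 59.9, 61.9 and 25.1 on fetal liver arrays 1 to 3, against 14.5, 11.5 and 13.5 on bone marrow arrays 1 to 3. The groups did not overlap, and the lowest fetal liver value was 1.73 times the highest bone marrow value. Groups that did not overlap were common, with 22.4 percent of the 134 tested miRNAs separate and higher in fetal liver. Before scaling the probe had 38.7, 34.1 and 26.3 in fetal liver and 16.1, 18.7 and 13.6 in bone marrow, also without overlap.

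The miR-486 probe was well above background on 2 of 3 arrays in each tissue, with fetal liver replicate 2 (0 of 10 spots) and bone marrow replicate 3 (2 of 10 spots) under the mark. The software's call per miRNA marked miR-486 as detected on all arrays but fetal liver replicate 2. The probe missed the rule for testing, which asks for all 3 arrays of a tissue. Its log2 level was 5.50 ± 0.74 in fetal liver, while all 3 bone marrow arrays lay at the floor, so that the difference of 1.46 depends on the floor. With the floor halved, where no value of this probe lay at it, the difference was 1.79, or 3.46-fold. With the rule loosened to 2 of 3 arrays, 154 miRNAs were tested and 18 (11.7 percent) called higher in fetal liver, miR-486 among them (1.46 ± 0.38 SE, limma, Benjamini-Hochberg adjusted p = 0.0425). That call was absent in each other fit in which miR-486 could be tested: 1.29 with adjusted p = 0.0960 when fetal liver replicate 2 was left out, 1.43 with adjusted p = 0.150 when bone marrow replicate 3 was, and 1.46 with adjusted p = 0.378 over all 567 miRNAs (limma, Benjamini-Hochberg).

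The other miR-486 probe, 1 base shorter, had scaled signals of 29.8, 28.2 and 12.7 in fetal liver and 10.8, 6.50 and 7.11 in bone marrow. It passed the background mark on 1 of 3 arrays in fetal liver and on 0 of 3 in bone marrow. As only 1 array measured it, no fold is given. These scaled signals did not overlap either, but the lowest fetal liver value was only 1.18 times the highest bone marrow value. On both probes these lowest values came from fetal liver replicate 3, so leaving out replicate 2 does not change the gaps. The 22.4 percent of tested miRNAs with separate groups was counted with the floor applied. With the floor, fetal liver replicate 3 and all 3 bone marrow arrays of the shorter probe lay at 4.04, so its groups were not separate.

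MiR-451 and miR-486 ordered the fetal liver sorts differently. Replicate 3 had the highest miR-451 signal of the 3 (738) and the lowest miR-486 signal (25.1), whereas replicate 1 had the lowest miR-451 signal (448) and a miR-486 signal of 59.9. The differences between fetal liver and bone marrow were compared pair by pair with two-sided exact permutation tests over the 6 arrays, which cannot go below p = 0.1 with 3 against 3. The difference of miR-451 exceeded that of miR-486 by 0.95 (exact permutation p = 0.3, also 0.3 after Benjamini-Hochberg adjustment over the 3 pairs). That excess depends on the floor, where miR-486 lay in bone marrow, and was 0.62 with the floor halved and 1.82 with it doubled. It was 0.34 without fetal liver replicate 3 and 1.18 without replicate 2, at the scaling of all 6 arrays. Against miR-144, which lay at the floor throughout, the excess was 2.41 for miR-451 and 1.46 for miR-486 (exact permutation p = 0.1 each, adjusted 0.15), the same as their own differences. Without fetal liver replicate 2, again at the scaling of all 6 arrays, the excess was 2.41 and 1.24.

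**Figure D3:**
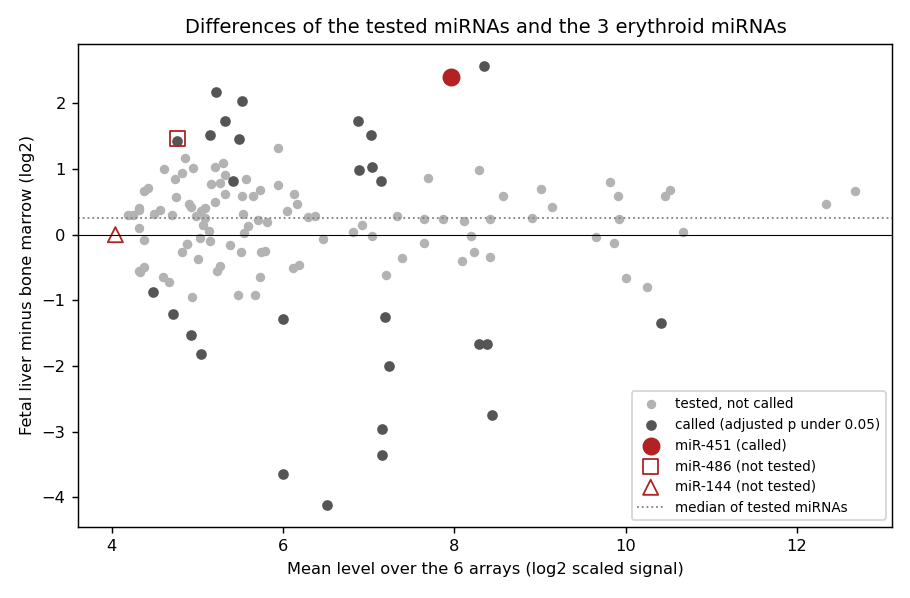
Difference between fetal liver and bone marrow (vertical axis, log2, positive is higher in fetal liver) against the mean level over the 6 arrays (horizontal axis, log2 scaled signal) for the 134 tested miRNAs, with the called ones dark, and for miR-451, miR-486 and miR-144 in red. MiR-451 stood at 2.41, while miR-486 (1.46) and miR-144 (0, at the floor) are open because they were not tested.

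The tested miRNAs with profiles most like that of miR-451 were found by the root mean square distance between levels centred on each miRNA's own mean over the 6 arrays. The nearest were miR-18a (0.42 on the log2 scale), miR-296-5p (0.42), miR-301a (0.53), miR-721 (0.57) and miR-301b (0.62), against a median of 1.24 over the tested miRNAs. Each was called higher in fetal liver, and their differences of 1.43 to 2.17 lay below that of miR-451. The calls follow largely from the choice of profiles close to that of miR-451. The smaller differences follow from miR-714 alone having a larger positive difference than miR-451. In bone marrow miR-301b lay at the floor on every array and miR-296-5p on replicates 2 and 3, so that their differences depend on it. MiR-18a was, like miR-451, highest on fetal liver replicate 3, while miR-296-5p and miR-721 were highest on replicate 2. Without that array, miR-18a (0.31) was again nearest, miR-301a, miR-296-5p and miR-301b were again among the nearest 5, and miR-130a (0.40) took the place of miR-721.

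**Figure D4:**
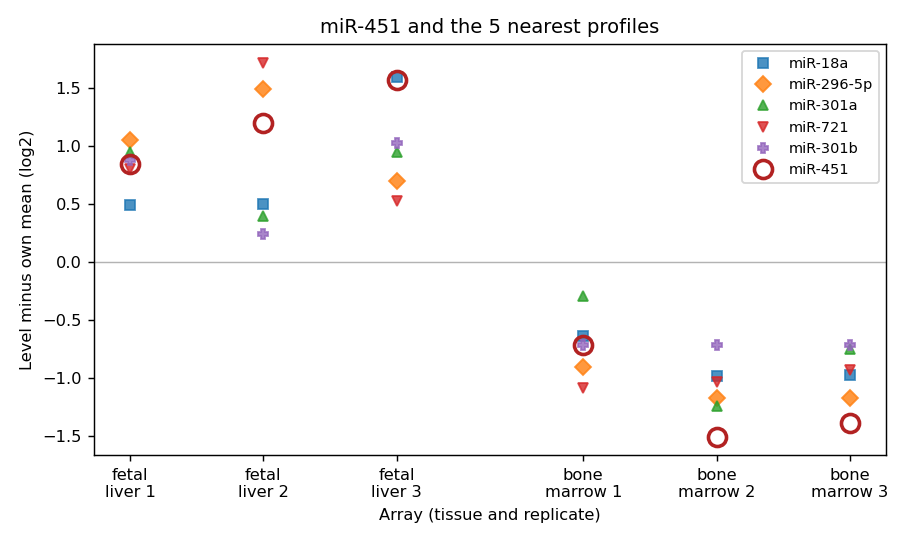
Level minus the miRNA's own mean over the 6 arrays (vertical axis, log2 scaled signal) on each array (horizontal axis) for miR-451 (open red circles) and its 5 nearest profiles. All 6 miRNAs lie above their mean on the fetal liver arrays and below it on the bone marrow arrays.

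Other miRNAs tied to red cell maturation were read from lists. Of 8 that accumulate as red cell precursors mature, 4 were tested and 0 were called in limma, against 21.6 percent of all tested miRNAs called in either direction. At an unadjusted p under 0.05 the count was also 0 of 4, against 32.8 percent of all tested. Their median difference was -0.21, against 0.25 over all tested miRNAs, and -0.03 against 0.22 without fetal liver replicate 2, where again 0 of 4 were called. MiR-15a and miR-15b, which share a seed with miR-16 and restrain cell cycle genes, differed by -0.40 ± 0.24 and 0.05 ± 0.19 (SE), and miR-22 by -0.38 ± 0.48. The other 4, miR-210, miR-96, miR-182 and miR-183, were not well above background on any array.

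Of 6 miRNAs reported to decline in that maturation, 5 were tested and 2 fell in fetal liver, against 11.2 percent of all tested miRNAs, with a median difference of -0.92. MiR-221, which represses the stem cell factor receptor Kit, passed the background mark on 0 of 3 arrays in fetal liver. Its difference was -1.20 ± 0.21 SE (limma, Benjamini-Hochberg adjusted p = 0.00779), with 2 of 3 fetal liver arrays at the floor. As an untested bound, with fetal liver arrays at no less than their lowest signal well above background, bone marrow was at least 1.29-fold higher. MiR-223, which is abundant in myeloid cells, fell by 2.00 ± 0.35 SE (adjusted p = 0.00779). MiR-150, a lymphocyte miRNA that targets Myb, differed by -0.92 ± 0.57 and was not called. The other tested members had small positive differences without a call, 0.28 ± 0.21 for miR-155 and 0.21 ± 0.20 for miR-24 (SE), and miR-222 was not well above background on any array. Without fetal liver replicate 2, miR-221 and miR-223 were again the 2 of 5 called lower, against 9.79 percent of all tested.

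Markers of other cells that a sort could hold were read beside miR-451. With signals under the floor set to it, the summed scaled signal of the 3 myeloid markers was 99.9 to 156 in fetal liver and 407 to 741 in bone marrow, so that the groups did not overlap with or without fetal liver replicate 2. Both tested members, miR-223 and miR-146a, fell in fetal liver (adjusted p from limma, Benjamini-Hochberg method: 0.00779 and 5.71e-04), also without replicate 2 (0.0237 and 0.00428), against the 11.2 percent of all tested miRNAs called lower. In fetal liver miR-223 passed the background mark on 2 of 3 arrays and miR-146a on 1 of 3. MiR-146a lay at the floor on the other 2 fetal liver arrays, so the size of its difference depends on the floor. The third, miR-511, missed the rule for testing, with scaled signals of 24.6, 70.4 and 3.39 in fetal liver and 13.8, 7.96 and 9.02 in bone marrow, which overlap. The summed signal of the 4 hepatocyte markers on the array was 101, 65.8 and 106 on fetal liver arrays 1 to 3, against 96.7, 96.0 and 90.8 on bone marrow arrays 1 to 3. The low sum is that of replicate 2, where all 4 were at the floor, and without it both fetal liver sums lay above all 3 bone marrow sums. MiR-148a, the 1 tested member, was not called (-0.47 ± 0.45 SE, and -0.03 ± 0.23 without replicate 2), and miR-192 and miR-194 were well above background on 0 arrays. The liver miRNA miR-122 was well above background on 1 array, fetal liver replicate 1, at a scaled signal of 31.7, and the part of hepatocyte RNA in these values was not tested. None of the 5 stromal markers on the array was well above background anywhere. The summed signal of the 2 megakaryocyte and endothelial markers was 32.9 to 64.9 in fetal liver and 44.8 to 52.1 in bone marrow. Of these, miR-126-3p was tested and not called (-0.15 ± 0.40 SE, and 0.18 ± 0.28 without replicate 2), and miR-126-5p was not well above background on any array. The summed signal of the 7 B lineage and pan-haematopoietic markers was 977 to 1411 in fetal liver (1248 to 1411 without replicate 2) and 969 to 1328 in bone marrow. Of 6 tested members miR-181a alone was called, lower in fetal liver (-1.25, adjusted p from limma, Benjamini-Hochberg method: 0.0249). Of all tested miRNAs 11.2 percent were called lower and 21.6 percent in either direction, so 1 of 6 does not set this list apart. The call of miR-181a ended without replicate 2 (-1.28, limma, Benjamini-Hochberg adjusted p = 0.0671). MiR-191, the untested member, was not well above background on any array. Of the erythroid list itself, miR-451 was on all arrays, miR-486 on some and miR-144 on none, and the part of red cell RNA in these values was not tested.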

How the data were processed

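The 6 arrays were 1-colour Agilent miRNA arrays with 100 ng of total RNA each, per the labels. The deposited scanner tables, made with Agilent Feature Extraction 9.5.3.1, hold an intensity per spot with background subtracted, and other spot values are flags of 0 or 1, per the file headers. The authors also deposited log2 values per spot, whose normalisation they did not describe in the files. All arrays share 1 scan time, and position on the slide separates the groups, so that position and tissue cannot be told apart.

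Spots marked as outliers were left out of means and of shares well above background. Arrays were scaled by the 75th percentile over 82 probes (factors 0.614 to 1.81), floored at 16.5 (from each array's 5th percentile of signals well above background, the median) and put on the log2 scale. The brightest probe stood for its miRNA, which was tested, in limma 3.58.1 (R 4.3.3) with Benjamini-Hochberg adjustment, if well above background on all 3 arrays of a tissue. Calls need an adjusted p under 0.05, and bone marrow was subtracted from fetal liver in each difference. The fit was tested on simulated data.

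The 3 miRNAs, the lists and the tests were chosen with earlier results of these data known. Named were the 3 miRNAs, list members that were called or had the 3 smallest p, and the 5 profiles nearest to miR-451. MiR-210, miR-96, miR-182, miR-183, miR-122, miR-192, miR-194, miR-146a, miR-148a, miR-181a, miR-191, miR-126-3p, miR-126-5p, miR-511 and miR-222 were named as list or marker members. MiR-714 and miR-130a were named after their values were seen. Alternatives covered scaling, background correction, floor, probes, filters, variance models, the replicate number as a block and leaving out each array.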

Additional observations from a re-analysis of the deposited data

How the results depend on the processing

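The difference of miR-451 was positive under all 21 alternatives (1.64 to 2.65, and 2.13 to 2.65 with 1 array left out), and its call ended in 1, with no filter on detection (2.41, limma, Benjamini-Hochberg adjusted p = 0.0596, range over the alternatives 3.33e-04 to 0.0596). Other scalings moved the median of all tested miRNAs by -0.76 (none), -0.32 (all mouse probes), -0.22 (quantile) and -0.23 (deposited table), and miR-451 stayed 2.05 to 2.34 above that median under them. The calls split into 14 higher and 15 lower in the reported fit, and into 4 and 20, 6 and 15, 9 and 17, and 11 and 18 under those scalings. With normexp background correction miR-451 stood only 1.54 above the median, and the calls split into 2 higher and 7 lower. MiR-486 depended on the floor, with 1.79 at a halved floor and 0.59 at a doubled floor. It was also smaller with normexp (0.54) and in the deposited table (0.58), where no floor was applied, and without scaling (0.95) or as the mean of all probes (1.00). With 1 array left out it was 1.29 to 1.84, and at 1.46 it was called with the filter of 2 of 3 arrays. MiR-144 had 0.14 with normexp, 0.15 in the deposited table and 0.12 at a halved floor, and 0 otherwise. The count of called miRNAs was 9 with normexp, 12 with no filter and 18 when all 6 arrays had to pass the background mark, and 12 to 40 with 1 array left out. The lowest of these, 12 (8.28 percent of 145), came without bone marrow replicate 3, and the counts were 16 and 19 without bone marrow replicates 2 and 1. The 3 pairwise comparisons were run in 10 of these settings, with the scaling of all 6 arrays kept when 1 was left out. They were positive in all 10: 0.34 to 1.82 for miR-451 minus miR-486 (0.34 to 1.33 with 1 array left out), 1.62 to 2.65 for miR-451 minus miR-144 (2.22 to 2.65) and 0.40 to 1.89 for miR-486 minus miR-144 (1.24 to 1.89). Wherever miR-144 lay at the floor, the comparisons with it only repeat the other member's own difference, so their sign adds nothing there. The lowest values of miR-486 minus miR-144 were 0.40 with normexp, 0.43 in the deposited table and 0.59 at a doubled floor.

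With the replicate number as a block, miR-451 differed by 2.41 (limma, Benjamini-Hochberg adjusted p = 0.00559) and 23 miRNAs were called, against 29. Arrays with the same number had deviations correlated at 0.17, -0.13 and -0.24, and arrays with different numbers at -0.32 to 0.33. No pairing by number was seen, though so few arrays cannot exclude it. Signal over background limits miR-144 and miR-486, and fetal liver replicate 2 limits both most, since its lowest signal well above background was 58.7 against 12.9 on replicate 1 and 14.3 on replicate 3.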
